A study of Homo sapiens
Mus musculus with 16 samples.

Results

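The comparison set the 8 xenograft tumours that had received nab-paclitaxel against the 8 that had not, 16 of the 16 tumours in the study, with phenelzine state as a covariate. Nab-paclitaxel is an albumin-bound form of paclitaxel, a drug that stabilises microtubules and so blocks the separation of chromosomes in dividing cells. Phenelzine inhibits monoamine oxidases and was given to 4 tumour-bearing mice on each side. All mice were Balb/c nude mice, which lack a thymus and therefore most T cells, and all carried tumours of MDA-MB-231, a human triple-negative breast cancer line. A tumour of this kind has human cancer cells and mouse host cells, so that counts of human genes were read as the tumour and counts of mouse genes as the host tissue within it.

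Each mouse was injected in the mammary fat pad with 2 M cells in 50 µl, and its tumour was excised on day 50. The 4 mice of the combination group received 30 mg/kg nab-paclitaxel into the peritoneum on days 15, 22 and 29 and 40 mg/kg phenelzine daily from day 15. The 4 mice of the nab-paclitaxel group received the same taxane doses alone. The 4 mice of the phenelzine group received phenelzine alone, and the 4 of the vehicle group only vehicle. Tumours were therefore taken 21 days after the last dose of nab-paclitaxel, while phenelzine is labelled as daily. The xenograft is a single cell line in a host without a full immune system, which limits it as a model of a patient's tumour.

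Each tumour gave 1 library. Human genes had 11.1 to 32.7 M counts per library with nab-paclitaxel (median 22.7 M) and 23.7 to 34.5 M without (median 33.0 M). Mouse genes had 6.60 to 27.4 M counts with nab-paclitaxel (median 18.3 M) and 3.46 to 14.4 M without (median 5.54 M). Both species together came to 33.6 to 42.6 M, and at the medians, tumours with nab-paclitaxel were read more deeply in host genes and less deeply in human genes. The matrices list Ensembl gene IDs with no symbols, and 0 of the 58051 human and 0 of the 48795 mouse IDs could be matched to a symbol. The labelled cell line and tissue could therefore not be checked against marker genes, gene groups by function could not be formed, and genes are described below by level, direction and library. Only 4 IDs are printed, 1 for each direction in each species.

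Host RNA made up a larger part of the tumours that had received nab-paclitaxel. The mouse share of all counts was 71.2%, 47.4%, 55.9% and 18.6% in combination tumours 1 to 4 and 59.7%, 23.4%, 21.0% and 41.9% in nab-paclitaxel tumours 1 to 4. It was 9.97%, 15.2%, 9.25% and 16.1% in phenelzine tumours 1 to 4 and 13.8%, 37.8%, 19.0% and 13.6% in vehicle tumours 1 to 4. The highest share without nab-paclitaxel, in vehicle tumour 2, lay above those of 3 tumours with the drug, so the 2 sets of 8 overlapped. The share averaged 42.4% ± 19.7 with nab-paclitaxel and 16.8% ± 9.04 without (SD, n = 8 each), a difference of 25.6 percentage points (exact permutation test within phenelzine states, two-sided, p = 0.00898). Counting error was small beside this, since no 95% Wilson interval of a single share was wider than 0.0323 points. In such bulk tissue fewer cancer cells, more host cells and a change of RNA per cell cannot be told apart.

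The difference was 35.6 points among the 8 tumours with phenelzine (exact permutation p = 0.0286, two-sided) and 15.5 points among the 8 without it (exact permutation p = 0.171). With 4 tumours on each side, the first of these is the smallest p the test can give. The effects in both states differed by 20.2 points, a difference that did not pass its own test (exact permutation p = 0.200, two-sided). Here phenelzine labels were permuted within the tumours with and within those without nab-paclitaxel. That test assumes no phenelzine effect on the share at all, so it does not test equal nab-paclitaxel effects alone. Leaving out any 1 of the 16 libraries left the pooled difference between 21.4 and 29.0 points. Nab-paclitaxel 1 and 4 and combination 1 and 3 stand apart from the other libraries in their human genes, a set taken from earlier results of these data. Without these 4 libraries the difference was 10.8 points (exact permutation p = 0.124).

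**Figure D1:**
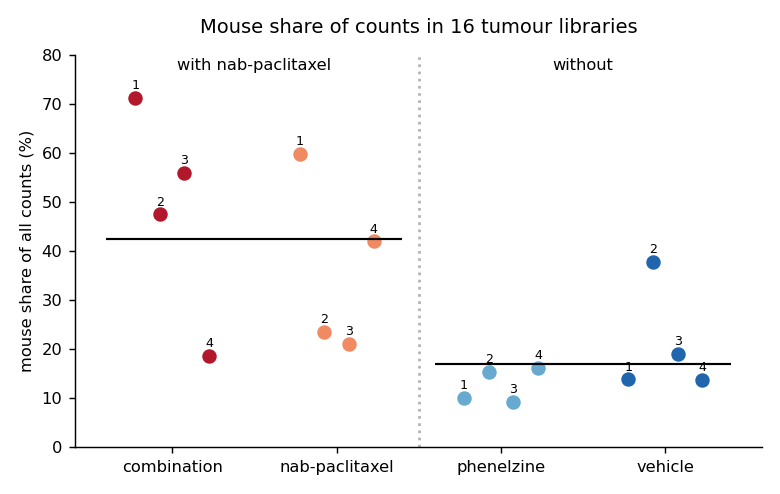
Mouse share of all counts (y axis, percent) in each of the 16 tumour libraries, by group, with the mouse number above each point; black lines are the means of the 8 libraries with nab-paclitaxel (42.4%) and the 8 without (16.8%). Vehicle 2, at 37.8%, lies above combination 4 and nab-paclitaxel 2 and 3.

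Among human genes, 1986 were higher and 1059 lower with nab-paclitaxel, out of 17167 tested (edgeR quasi-likelihood test, Benjamini-Hochberg adjusted p under 0.05). These are 11.6% and 6.17% of all tested genes, 17.7% together. The division of reads between species was not stated, and a mouse read given to a human gene would count here. The rises were the larger changes. Their median log2 fold change was 1.14, with 504 genes over 4-fold and 41 over 64-fold. The falls had a median log2 fold change of -0.48, with 33 genes over 4-fold and 0 over 64-fold. Over all tested human genes the median log2 fold change was -0.00, a value that the scaling between libraries itself holds near 0.

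Rises lay mostly among genes at low levels in tumours without the drug, and falls among abundant ones. Levels are given as CPM, counts relative to the library total after scaling by TMM factors, which correct for differences in composition between libraries. Of the 1986 genes that rose, 618 (31.1%) averaged under 1 CPM without nab-paclitaxel, 665 (33.5%) 1 to 10 CPM, 599 (30.2%) 10 to 100 CPM and 104 (5.24%) at least 100 CPM. Of the 1059 that fell, 35 (3.31%) averaged under 1 CPM, 146 (13.8%) 1 to 10 CPM, 455 (43.0%) 10 to 100 CPM and 423 (39.9%) at least 100 CPM. Among all 17167 tested genes these bins held 17.6%, 23.8%, 44.1% and 14.6%. The size of the rise fell with level, from a median log2 fold change of 2.21 in the lowest bin to 0.51 in the highest. All tested genes leaned the same way, with median log2 fold changes of 0.43, 0.13, -0.05 and -0.15 in these bins, whose levels also enter the fold change. A low count filter can shape such a pattern too. In 101 tested genes no library without the drug reached the filter's 0.339 CPM. These genes passed only through libraries with nab-paclitaxel and had to be higher there, and 92 of them were among the rises. Without them 1894 genes rose, with a median log2 fold change of 1.08.

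**Figure D2:**
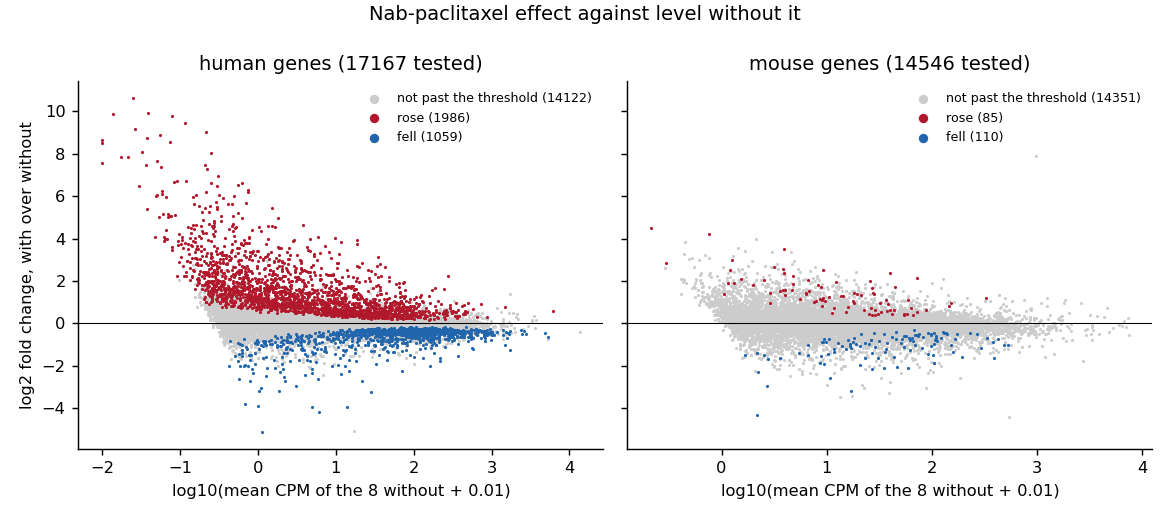
Log2 fold change with over without nab-paclitaxel (y axis) against log10 of the mean CPM of the 8 libraries without it plus 0.01 (x axis), each point 1 gene, human left and mouse right. Human rises reach 10.64 and lie mostly at low levels, human falls mostly at higher levels, and far fewer mouse genes pass the threshold (85 rose, 110 fell).

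The effect was uneven across the 8 tumours. Nab-paclitaxel 1 and 4 had 96.2% and 93.2% of the 1986 rising genes above all 8 libraries without the drug, and combination 1 and 3 had 92.2% and 96.3%. In nab-paclitaxel 3 and combination 4 these shares were 69.4% and 62.2%. Nab-paclitaxel 2 and combination 2 had the smallest shares, 42.4% and 35.7%. The falling genes gave much the same ranking, with 93.8% and 92.4% of 1059 below all 8 libraries without the drug in nab-paclitaxel 1 and combination 3, and 48.5% and 53.6% in nab-paclitaxel 2 and combination 2. These genes were called in part on the same libraries, so the shares describe them and test nothing. In 218 of the rising and 124 of the falling genes all 8 libraries with nab-paclitaxel lay beyond all 8 without. Over all tested genes that held in 1.27% for higher and 0.734% for lower values.

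Nab-paclitaxel 1 and 4 and combination 1 and 3 had the most rising genes above all libraries without the drug. They held 59.7%, 41.9%, 71.2% and 55.9% mouse counts. Across all libraries with the drug, the order by mouse share was not the order by human response. Combination 2 and nab-paclitaxel 4, at 47.4% and 41.9% mouse counts, had 709 and 1851 of the rising genes above all libraries without the drug. Combination 4 and nab-paclitaxel 3 and 2, at 18.6%, 21.0% and 23.4% mouse counts, had 1236, 1379 and 842. When the mouse share of each library was added to the model, 52 human genes rose and 17 fell, 69 in all, of which 64 were among the 3045 called without it. The mouse share itself differed with the drug, at a mean of 42.4% with it and 16.8% without. This fit therefore cannot tell drug and mouse share apart, and the part of the share in the calls was not tested.

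**Figure D3:**
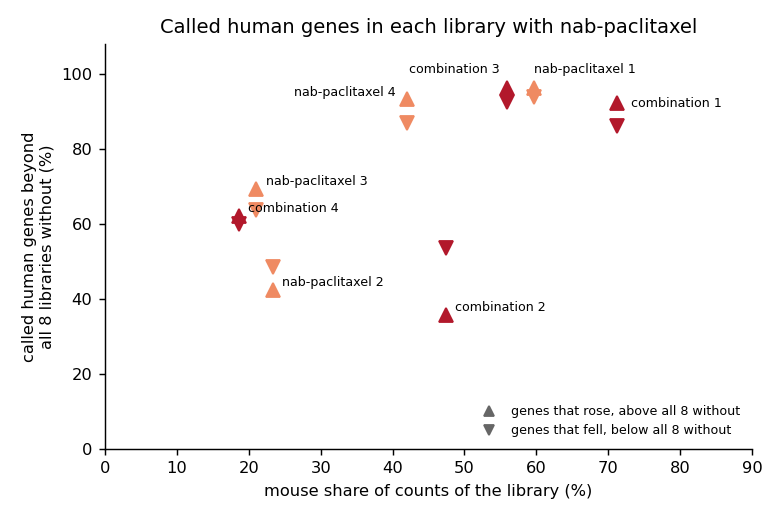
Percentage of the called human genes that lie beyond all 8 libraries without nab-paclitaxel (y axis; upward triangles, 1986 genes that rose; downward triangles, 1059 that fell) against the mouse share of counts (x axis, percent) in each library with the drug. Combination 2, at 47.4% mouse counts, has 35.7% of the rises, while nab-paclitaxel 4, at 41.9%, has 93.2%. Combination 1 and 3 and nab-paclitaxel 1, at 71.2%, 55.9% and 59.7% mouse counts, have 92.2%, 96.3% and 96.2%.

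The human count was lower without the strongly shifted tumours. Without the 4 libraries that stand apart (nab-paclitaxel 1 and 4, combination 1 and 3), 196 genes rose and 85 fell, and 254 of these 281 were among the 3045. The 4 libraries left out had been picked for standing apart in human genes of these same data, so a lower count was favoured in advance. The fit also held fewer libraries with the drug, and what the count rested on was not tested. With single libraries left out the count was lowest without nab-paclitaxel 1 (1801) or combination 3 (1838) and highest without combination 2 (4579). Within a single phenelzine state of 8 libraries, 18 genes rose and 9 fell without phenelzine, and 0 rose and 1 fell with it (edgeR adjusted p under 0.05, with 3687 and 3073 genes at an unadjusted p under 0.05).

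The 8 human genes with the largest rise, chosen among 1271 called genes that averaged 5 CPM or more with the drug, were close to absent without the drug. Their median level without nab-paclitaxel was 0 to 0.198 CPM and no library without it exceeded 0.398 CPM. Apart from the gene that reached 0.398 CPM, they stayed under the filter's 0.339 CPM in all libraries without the drug. Those genes were tested only through libraries with nab-paclitaxel and had to be higher there. Their near absence without the drug thus follows from the filter and the ranking by fold. With the drug their medians were 3.44 to 75.2 CPM and their highest values 25.4 to 269 CPM. In 7 of these 8 genes the 8 libraries with nab-paclitaxel all lay above the 8 without, including the weakly shifted tumours. The lowest values with the drug in those 7 genes were only 0.246 to 2.11 CPM. Over all tested human genes that held in 1.27%, and the filter and the ranking favour it here.

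ENSG00000140807 had the largest rise. It stood at 49.5, 0.540, 92.6 and 3.42 CPM in combination tumours 1 to 4 and at 82.0, 0.377, 1.72 and 40.7 CPM in nab-paclitaxel tumours 1 to 4. Of the 8 libraries without the drug, 7 were at 0 and vehicle 4 held 4 counts, 0.120 CPM. The groups did not overlap, which was a condition for printing a gene. Libraries with the drug spread over more than 2 orders of magnitude, with combination 2 and nab-paclitaxel 2 lowest. The mean was 33.9 ± 38.3 CPM with nab-paclitaxel and 0.0151 ± 0.0426 CPM without (SD, n = 8 each). The fitted log2 fold change, 10.64 with a standard error of 1.58 (edgeR adjusted p = 0.00114), depends on the prior count because nearly all libraries without the drug were at 0. The call was kept with any 1 library left out and without the 4 libraries that stand apart, and lost with the mouse share in the model (log2 fold change 6.93, edgeR adjusted p = 0.0607). It was also short of the threshold in each phenelzine state alone, at log2 fold changes of 12.88 with phenelzine and 9.64 without (edgeR adjusted p = 0.134 and 0.0759).

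The 8 largest human falls, among 926 eligible genes, were smaller, with log2 fold changes of -4.18 to -2.23. In 4 of the 8 the libraries with nab-paclitaxel all lay below those without. The first of the 8 by fold was carried by few libraries. It averaged 0.361 CPM with nab-paclitaxel and 6.04 CPM without, where the median was 0.280 CPM and the highest library 23.2 CPM.

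ENSG00000173110 had the largest fall among the 4 genes without overlap. It stood at 1.61, 0.835, 1.45 and 4.60 CPM in combination tumours 1 to 4 and at 1.91, 10.6, 2.68 and 0.529 CPM in nab-paclitaxel tumours 1 to 4. In phenelzine tumours 1 to 4 it stood at 16.9, 19.8, 34.6 and 30.3 CPM, and in vehicle tumours 1 to 4 at 32.1, 33.6, 22.0 and 34.1 CPM. Combination 2, which showed the fewest of the rises, was among the lowest libraries for this gene, while nab-paclitaxel 2 was the highest of those with the drug. The mean was 3.03 ± 3.32 CPM with nab-paclitaxel and 28.0 ± 7.18 CPM without (SD, n = 8 each). The log2 fold change was -3.23, with a standard error of 0.482 (edgeR adjusted p = 0.00114). The call was kept with any 1 library left out, with the mouse share in the model and without the 4 libraries that stand apart. It was short of the threshold in each phenelzine state taken alone, at log2 fold changes of -3.54 with phenelzine and -2.93 without (edgeR adjusted p = 0.112 and 0.0850).

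To see whether human changes found in some mice recurred in others, the 200 genes with the lowest p for a rise, and the 200 for a fall, were taken from the 8 libraries of 1 phenelzine state and read in the 8 of the other, which share no mouse with them. The 200 rises chosen without phenelzine had a median log2 fold change of 2.76 in the libraries with phenelzine, where all tested genes had 0.00. Their median difference from the mean of the 4 phenelzine tumours was 2.70, 0.42, 2.81 and 1.28 (log2) in combination tumours 1 to 4. The phenelzine tumours themselves lay between -0.11 and 0.13. The 200 rises chosen with phenelzine had a median log2 fold change of 1.52 in the libraries without it. Their median difference from the mean of the 4 vehicle tumours was 1.88, 0.59, 0.98 and 1.55 in nab-paclitaxel tumours 1 to 4, against -0.02 to 0.04 in vehicle tumours. In these genes every tumour with nab-paclitaxel shifted the way the other state's tumours did, combination 2 and nab-paclitaxel 2 least. The genes had also passed the filter over all 16 libraries, so their choice was not fully separate from the libraries read. Genes that passed only through libraries with the drug were not set aside, and they favour such a shift. Vehicle 2, at 37.8% mouse counts, had a median difference of 0.04 in the rises chosen with phenelzine, from a vehicle mean that includes it. The part of the mouse share in these rises was not tested.

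The 200 human falls recurred with smaller size. Those chosen without phenelzine had a median log2 fold change of -0.33 in the libraries with it, and -0.40, -0.15, -0.67 and -0.22 in combination tumours 1 to 4. Those chosen with phenelzine had a median of -0.46 in the libraries without it, and -0.91, -0.15, -0.22 and -0.54 in nab-paclitaxel tumours 1 to 4. The smallest of these, in combination 2 and nab-paclitaxel 2, lay close to the range of the libraries without the drug, which was -0.08 to 0.13. All 3045 called human genes had the same sign of effect in both phenelzine states, as did 75.0% of all tested genes; for the called genes the pooled test itself favours this. In edgeR, the only tool run for it, 0 genes of either species passed the test of a difference between the states, with 524 human and 1178 mouse genes at an unadjusted p under 0.05.

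**Figure D4:**
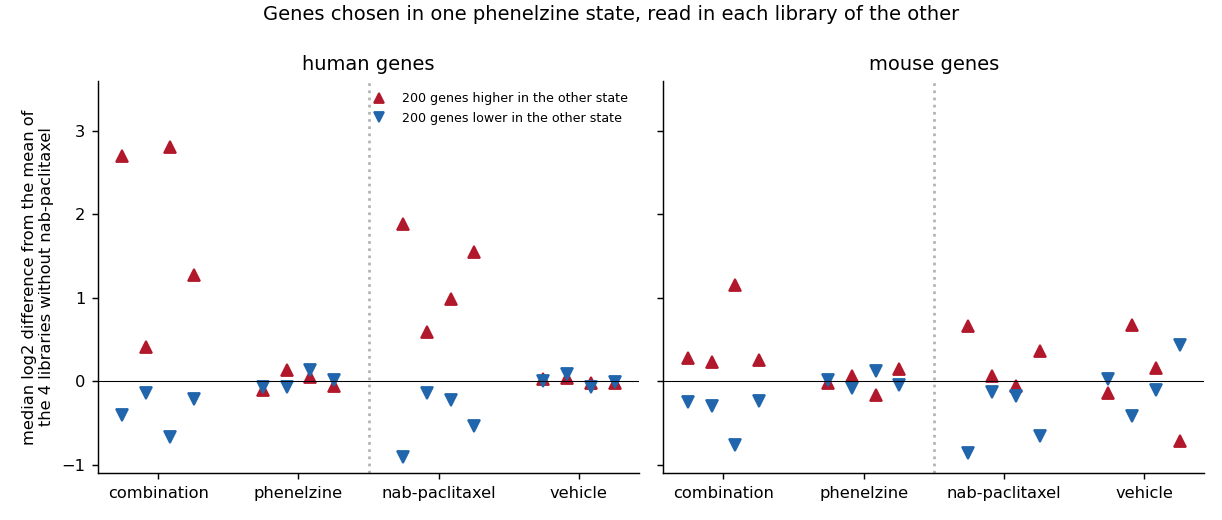
Median log2 difference (y axis) of 200 genes with the lowest p for a rise (red, upward) and 200 for a fall (blue, downward), chosen in the 8 libraries of 1 phenelzine state and read in each library of the other, from the mean of the 4 libraries of that other state without nab-paclitaxel. In human genes all 8 libraries with the drug shift the same way (0.42 to 2.81 for rises) while those without stay between -0.11 and 0.13; in mouse genes vehicle libraries range from -0.72 to 0.67.

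Among mouse genes, 85 were higher and 110 lower with nab-paclitaxel, out of 14546 tested (edgeR quasi-likelihood test, adjusted p under 0.05). These are 0.584% and 0.756% of the tested genes, 1.34% together. The rises had a median log2 fold change of 1.28 and a median level of 33.6 CPM with nab-paclitaxel and 12.3 CPM without. The falls had a median log2 fold change of -0.95 and a median level of 22.7 CPM with nab-paclitaxel and 44.4 CPM without. Of the 85 rises, 3 (3.53%) averaged under 1 CPM without the drug, 36 (42.4%) 1 to 10 CPM, 43 (50.6%) 10 to 100 CPM and 3 (3.53%) at least 100 CPM. Among all tested mouse genes these bins held 1.11%, 27.0%, 56.1% and 15.9%. The median over all tested mouse genes was -0.01.

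The 8 mouse libraries with nab-paclitaxel ranked differently from the human ones. Combination 4 stood least far from the tumours without the drug, with 47.1% of the 85 rises above and 43.6% of the 110 falls below all 8 of them. In combination 2, which had the smallest share of the human rises, these shares were 82.4% and 82.7%. Nab-paclitaxel 1 had the largest shares, 98.8% and 96.4%. In 26 rises and 17 falls all 8 libraries lay beyond the 8 without. Over all tested mouse genes that held in 0.199% for higher and 0.144% for lower values.

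The count of host genes depended on single libraries. It was 22 without nab-paclitaxel 4, 27 without nab-paclitaxel 1 or combination 3, 28 without phenelzine 1, 29 without vehicle 4, 50 without phenelzine 3 and 62 without combination 1. It was 80 without phenelzine 4, 92 without vehicle 1, 106 without combination 2 and 113 without vehicle 3. It was 360 without nab-paclitaxel 2, 495 without combination 4 and 908 without vehicle 2. In these last 3 fits 189, 195 and 194 of the 195 calls were kept. Without the 4 libraries that stand apart, and so with fewer libraries with the drug, edgeR called 0 mouse genes, with 1064 at an unadjusted p under 0.05. No other tool was run on the libraries that remained. With the mouse share in the model 6 rose and 1 fell, 5 of them among the 195. DESeq2 called 1226 mouse genes and voom with quality weights 1087, of which 315 rose and 772 fell.

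The 8 largest mouse rises had log2 fold changes of 2.51 to 4.50, and in 4 of them the 8 libraries with nab-paclitaxel did not overlap the 8 without. ENSMUSG00000022435 had the largest. It stood at 3.03, 7.15, 4.89 and 2.32 CPM in combination tumours 1 to 4 and at 9.01, 6.31, 11.9 and 1.86 CPM in nab-paclitaxel tumours 1 to 4. Of the libraries without the drug 5 were at 0, and phenelzine 2, vehicle 2 and vehicle 3 held 0.318, 0.703 and 0.613 CPM. Unlike the largest human rise, it was present in every tumour with the drug within 1 order of magnitude, and nab-paclitaxel 2 and 3 were not low. No library without the drug reached the mouse filter's 1.32 CPM, as in 6 tested mouse genes, of which 2 rose. The gene was thus tested only through libraries with nab-paclitaxel and had to be higher there. The mean was 5.80 ± 3.49 CPM with nab-paclitaxel and 0.204 ± 0.302 CPM without (SD, n = 8 each). The log2 fold change was 4.50, with a standard error of 0.632 (edgeR adjusted p = 0.00709). The call was kept with any 1 library left out and, narrowly, with the mouse share in the model (edgeR adjusted p = 0.0490), and lost without the 4 libraries that stand apart (log2 fold change 4.81, edgeR adjusted p = 0.102). Neither phenelzine state alone gave a call, at log2 fold changes of 5.29 with phenelzine and 4.15 without (edgeR adjusted p = 0.116 and 0.288). The counts behind it are small, 15 to 210 per library with the drug and 0 to 11 without.

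The 8 largest mouse falls had log2 fold changes of -3.21 to -1.93, and ENSMUSG00000037852 was the 1 among them without overlap. It stood at 7.79, 8.08, 3.49 and 17.3 CPM in combination tumours 1 to 4 and at 6.18, 10.2, 8.11 and 4.08 CPM in nab-paclitaxel tumours 1 to 4. In phenelzine tumours 1 to 4 it stood at 41.0, 27.2, 23.7 and 29.9 CPM, and in vehicle tumours 1 to 4 at 19.0, 84.5, 19.2 and 36.3 CPM. Combination 4, at 17.3 CPM, came close to vehicle 1 and 3, and vehicle 2 stood far above the rest. The mean was 8.15 ± 4.31 CPM with nab-paclitaxel and 35.1 ± 21.4 CPM without (SD, n = 8 each). The log2 fold change was -2.13, with a standard error of 0.374 (edgeR adjusted p = 0.0207). Leaving out nab-paclitaxel 1, nab-paclitaxel 4 or phenelzine 1 ended the call (edgeR adjusted p = 0.0587, 0.0503 and 0.0509), as did fits with the mouse share in the model (0.247) and without the 4 libraries that stand apart (0.585), at log2 fold changes of -2.06, -2.00, -2.08, -2.06 and -1.68. The libraries of a single phenelzine state gave -1.77 with phenelzine and -2.49 without, again with no call (edgeR adjusted p = 0.130 and 0.288).

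**Figure D5:**
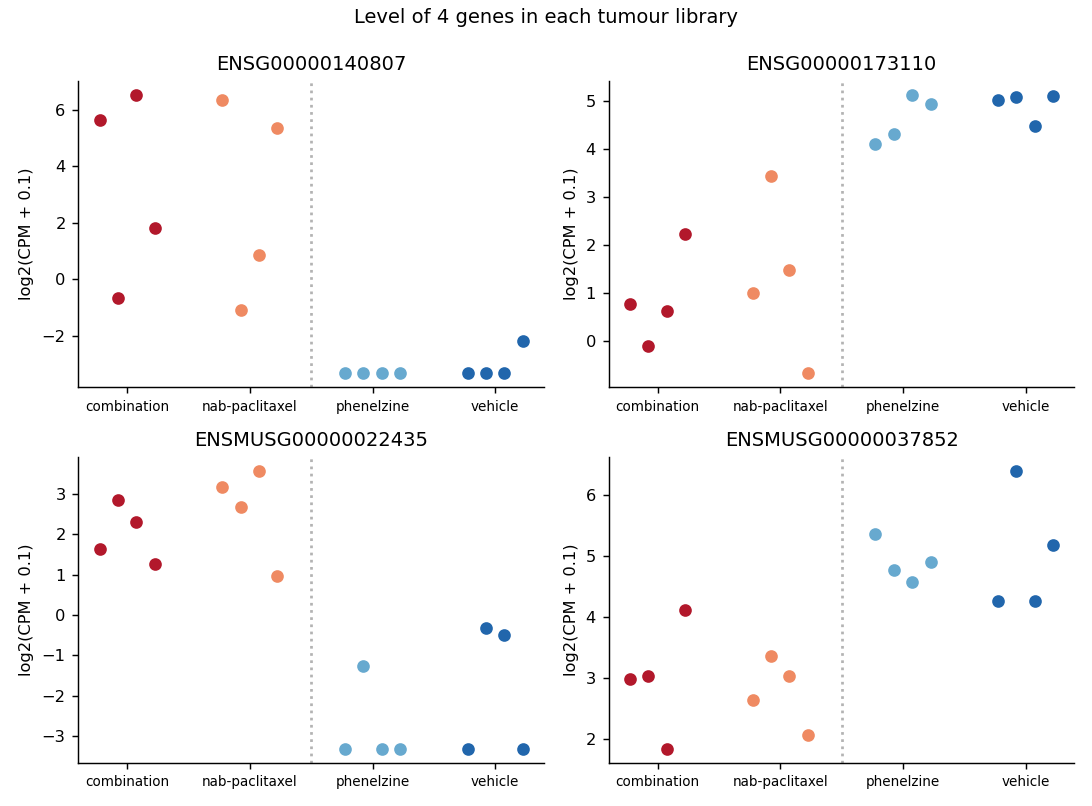
Level of the 4 printed genes, as log2(CPM + 0.1) (y axis), in each of the 16 tumour libraries by group, mice 1 to 4 from left to right within a group. In each gene the 8 libraries with nab-paclitaxel (left of the dotted line) do not overlap the 8 without, which was a condition for printing it. The points at the bottom of the left panels are libraries at 0.

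Host genes were read across phenelzine states in the same way. The 200 rises chosen without phenelzine had a median log2 fold change of 0.54 in the libraries with it, where all tested mouse genes had 0.03. Their median differences in combination tumours 1 to 4 were 0.28, 0.23, 1.16 and 0.26, so that combination 3 stood alone, while phenelzine tumours lay between -0.17 and 0.15. The 200 falls chosen without phenelzine had a median of -0.36 in the libraries with it. They stood at -0.25, -0.30, -0.76 and -0.24 in combination tumours 1 to 4, all below the -0.08 to 0.12 of phenelzine tumours. The 200 rises chosen with phenelzine had a median of 0.12 in the libraries without it, where all tested genes had -0.04. Nab-paclitaxel tumours 1 to 4 stood at 0.66, 0.06, -0.06 and 0.36 and vehicle tumours 1 to 4 at -0.15, 0.67, 0.16 and -0.72. These rises therefore varied as much among vehicle tumours as between vehicle and nab-paclitaxel tumours. The 200 falls chosen with phenelzine had a median of -0.50 in the libraries without it. They stood at -0.87, -0.13, -0.18 and -0.66 in nab-paclitaxel tumours 1 to 4 and 0.02, -0.42, -0.10 and 0.44 in vehicle tumours 1 to 4, so that nab-paclitaxel 2 and 3 lay within the range of vehicle tumours.

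The spread between mice moved in opposite ways in tumour and host. For each gene, the variance of log2(CPM + 0.5) among the 4 libraries of a group was averaged over the groups with or without nab-paclitaxel. The SD is the root of that average. In human genes the median SD was 0.345 with nab-paclitaxel and 0.223 without, and the SD was larger with the drug in 76.3% of 17167 genes. In mouse genes the median SD was 0.309 with nab-paclitaxel and 0.389 without, and the SD was larger with the drug in 33.2% of 14546 genes. Depth moved with both, since libraries with the drug had fewer human and more mouse counts, and its part in the spread was not tested. The mouse spread without the drug includes vehicle 2, at 37.8% mouse counts. A fit without vehicle 2 called 908 mouse genes, against 195 with it, and the part of vehicle 2 in the spread was not tested either. The number of tested human genes at 1 CPM or more was 14034 to 14870 with nab-paclitaxel (median 14508) and 13977 to 14172 without (median 14064). The 100 most abundant human genes took 16.3% to 22.1% of human counts with nab-paclitaxel and 16.9% to 18.6% without.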

How the data were processed

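The authors deposited whole-number counts per gene, 1 matrix of human and 1 of mouse genes, for 16 mRNA libraries. The submitters' processing notes list the builds hg38 and mm10 and the tools HISAT2 2.04, Trimmomatic 0.36, StringTie, Picard and edgeR, without saying what each was used for. The division of reads between species, the annotation and the strand setting were not stated, and a read given to the wrong species would count as expression. Low counts are not plain tallies: among human genes there are 14483 values of 1, 24107 of 2, 24309 of 3 and 10534 of 4.

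Human and mouse counts were fitted separately (edgeR 4.0.16, R 4.3.3), with TMM factors, edgeR's expression filter at a minimum count of 10, terms for phenelzine and nab-paclitaxel over 16 libraries (13 residual degrees of freedom), the quasi-likelihood F test and a threshold of 0.05 on the adjusted p. Standard errors are the log2 fold change over the square root of F. Alternatives used limma 3.58.1 (voom) and DESeq2 1.42.0. No library repeated another of its group (chi-square per degree of freedom at least 10.4). Each library is 1 mouse. On simulated data the test recovered 58% of 2-fold and 92% of 4-fold changes in 16902 human genes, with 4 false among 138 calls. In 14374 mouse genes it recovered 46% and 78%, with 8 false among 135. Each fold size had 50 changed genes per species. In the tumours 3045 human genes were called, and the median SD in human genes was 0.345 with the drug and 0.223 without. Whether the recovery and the false calls carry over to such data was not tested.

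The comparison and the gene lists were chosen with earlier results of these data known. The lists needed symbols, so none could be tested. The rule for named genes took, per species, up to 8 rises and 8 falls largest in fold, past the threshold, averaging 5 CPM or more on the higher side and with the same sign in both phenelzine states; its parts that need symbols were not applied. The 4 printed IDs, the largest of each direction without overlap, were picked with their values in view. Reads shared with similar or overlapping genes were not assessed. Of the columns of per-sample values, 0 were left unused.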

Additional observations from a re-analysis of the deposited data

Results flagged for a closer look

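Single libraries stood far from the other 7 of their set in 5 values. Chance alone would flag about 1 set in 20, but the number of sets looked at is not given here. The 5 can therefore not be compared with chance, and they are not all separate. Vehicle 2 had a mouse share of 37.8% and 14.4 M mouse counts, far above the other libraries without nab-paclitaxel. It was also far above them in ENSMUSG00000037852, at 84.5 CPM. Nab-paclitaxel 2, at 10.6 CPM of ENSG00000173110, stood above the other libraries with the drug. Vehicle 4, at 0.120 CPM from 4 counts of ENSG00000140807, was the only library without the drug above 0, so any count in it would have been flagged.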

How the results depend on the processing

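The human count of 3045 stayed within 1.5 times under DESeq2, voom, RLE size factors, no filter, 1 mean per group, no phenelzine term, the replicate block, a minimum mean of 1 CPM and robust dispersion (2346 to 4178; the last pair of settings was added after seeing the data). Adding the mouse share to the model left 69, dropping the 4 libraries that stand apart left 281, and the count was 27 in libraries without phenelzine and 1 in those with it, where fewer libraries were fitted, and 1801 to 4579 with 1 library left out. The mouse count of 195 was 1226 under DESeq2, 1087 under voom, 75 without a filter, 7 with the mouse share, 0 without the 4 libraries that stand apart, 0 without phenelzine (1385 genes at an unadjusted p under 0.05 in edgeR) and 2 with it, and 22 to 908 with 1 library left out. The replicate block gave 2910 human and 123 mouse genes. Replicate numbers are not said to mark pairs: 5 of 24 same-numbered pairs correlated above 0.1 in human and 12 of 24 in mouse genes, and 7 and 5 of 16 libraries correlated best with their own number. The mouse share difference of 25.6 points was 10.8 points without the 4 libraries that stand apart and 15.5 points without phenelzine, both short of the threshold, and 21.4 to 29.0 points with 1 library left out. No called gene changed sign while staying called in any of these fits. Causes of these changes were not tested where none is named.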
